A study of Mus musculus with 18 samples.

Results

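RAW264.7 is a mouse macrophage-like line that grew out of a tumour induced by a leukaemia virus. The M2 response of its Kdm7a knockout derivative was read from 6 of the 18 libraries of the series, 3 of knockout cells under M2 conditions and 3 of knockout cells left unstimulated (M0). The M2 condition was a mixture of mouse IL-4, IL-10 and IL-13, given at 20 ng/ml per the labels, with human TGF-β1 at 2 ng/ml, and both conditions lasted 48 h. Members were chosen by their labels alone, which name the guide RNA, the condition and the replicate. Cells carrying a control guide RNA, called wild type in the labels, supplied 3 M2 and 3 M0 libraries for the comparison of responses. The remaining 6 libraries, 3 of each genotype, were of M1 cells, exposed to interferon-γ together with bacterial lipopolysaccharide (LPS), also for 48 h. All cells were cultured in the same serum-containing medium. The labels name a single Kdm7a knockout, made with CRISPR/Cas9, and do not say whether it was a clone or a pool of cells. A difference between the knockout and control cells that does not come from Kdm7a therefore cannot be told apart from an effect of the knockout. Whether replicates came from separate cultures is not stated, so p-values cover the spread among the libraries, and that spread may be technical only.

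Kdm7a encodes an enzyme with a Jumonji domain, which takes methyl groups off lysines of histone tails, among them marks linked to gene silencing. IL-4 and IL-13 bind receptors that share the chain IL-4Rα and act through Janus kinases and the transcription factor STAT6. IL-10 acts mainly through STAT3, and TGF-β through receptor kinases that phosphorylate SMAD proteins. Macrophages exposed to such signals are called alternatively activated, and in mice are known for arginase 1, for scavenger and lectin receptors and for functions in tissue repair and clearance. Feedback inhibitors of the CIS and SOCS family limit the same Janus kinases.

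The sequences around the transcription start of the most induced genes are shown because STAT proteins bind short palindromes. The searched letters were TTCNNNNGAA, the spacing that STAT6 prefers, and TTCNNNGAA, the spacing of other STAT proteins, each of which reads the same on both strands. Promoter windows came from RefSeq on GRCm38.p6 and ran from 250 bases before to 50 bases after a start. Of the 12 genes with the largest rises, 8 had a window, and 2 of those windows held such a palindrome. The bases from 250 before to 30 after the start are printed for these 2, the palindromes in capitals. In Cish (chr9:107296409-107296688, plus strand) TTCCTGGAA began at the first base of the transcript, position 1, and TTCTTGGAA at position 12. In Cd36 (chr5:17835867-17836146, minus strand) TTCACCAGAA began at position 21.
Cish: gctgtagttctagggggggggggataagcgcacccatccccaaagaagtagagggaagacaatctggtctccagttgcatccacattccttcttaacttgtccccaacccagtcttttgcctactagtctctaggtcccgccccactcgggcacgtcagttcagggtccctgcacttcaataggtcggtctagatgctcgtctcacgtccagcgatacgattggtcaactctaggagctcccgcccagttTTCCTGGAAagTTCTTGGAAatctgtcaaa
Cd36: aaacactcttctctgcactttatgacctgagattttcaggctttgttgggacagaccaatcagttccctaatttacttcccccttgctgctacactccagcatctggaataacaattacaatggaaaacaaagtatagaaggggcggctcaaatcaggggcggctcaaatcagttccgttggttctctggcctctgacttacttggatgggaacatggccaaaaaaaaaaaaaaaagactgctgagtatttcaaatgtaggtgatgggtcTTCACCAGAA
Windows were found for 552 of the 732 genes that rose by 2-fold or more under M2 in knockout cells, for 224 of the 327 that fell as much and for 8784 of the 11548 tested. TTCNNNNGAA stood in 5.5% of the 709 windows of rising genes, in 2.38% of the 294 windows of falling genes, and in 5.46% of the 11171 windows of all tested genes. TTCNNNGAA stood in 7.33%, 7.48% and 7.01% of these windows. The SMAD palindrome GTCTAGAC was in 0.282%, 0.34% and 0.242%, and 1 of these windows was that of Ltb4r1. The shorter SMAD letters CAGACA, searched on both strands, were in 19.2%, 20.1% and 15.7%. The windows of rising genes held each set of STAT letters at a share close to that of all tested genes.

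Kdm7a itself, on chromosome 6, had 5.83, 7.54 and 7.04 TPM (a transcript's share of all transcripts, corrected for length and scaled to a fixed total) in the M2 knockout libraries and 3.33, 3.25 and 3.52 TPM in the M0 knockout libraries. The control libraries had 24.5, 23.3 and 22.2 TPM under M2 and 11.3, 11 and 11 TPM at M0, above every knockout library of their condition. The residual knockout transcript rose under M2 by a log2 fold change of 0.83 ± 0.068 (± SE, limma adjusted p = 1.43e-09), and the rise was not called different from that in control cells (difference -0.18, adjusted p = 0.257). Across genes, libraries correlated at r of 0.9944 to 0.9957 within the M2 knockout group, 0.9951 to 0.996 within the M0 knockout group and 0.9391 to 0.9433 between them. The first principal component of the 6 libraries held 89.6% of the variance and parted M2 from M0, and the second, with 3.44%, set M2 library 1 apart from M2 libraries 2 and 3. Without that library 3542 genes were called higher and 4666 lower. Of 12 tested macrophage markers 7 rose and 5 fell, where 29.6% of all tested genes were higher and 43.2% lower. The summed level of the 13 on the list was 5260 to 5403 TPM under M2 and 6305 to 6370 TPM at M0 in knockout cells. Markers of dendritic cells summed to at most 1.17 TPM under M2 and 1.72 TPM at M0, fibroblast markers to at most 0.13 and 0.44 TPM, neutrophil and mast cell markers to at most 1.68 and 0.61 TPM, and epithelial and endothelial markers to at most 2.83 and 0.39 TPM. Lymphocyte markers summed to 19.8 to 21.2 TPM under M2 and 2.3 to 2.62 TPM at M0. Nearly all of this was Cd79a, a part of the B cell receptor, at 20.0, 19.6 and 21.2 TPM under M2 and 2.05, 2.46 and 2.54 TPM at M0, while Cd3e, Ms4a1 and Nkg7 were listed at 0 in all 6 libraries. In bulk RNA, more cells of a type and more RNA per cell cannot be told apart.

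M2 stimulation changed the level of most expressed genes in knockout cells, but only a minority by 2-fold or more. Of 11548 genes tested, 8414 were called at a limma adjusted p below 0.05, or 72.9%, of which 3423 were higher (29.6%) and 4991 lower (43.2%). A 2-fold change was reached by 9.17%, of which 732 were higher (6.34%) and 327 lower (2.83%). The libraries of the 2 conditions did not overlap for 8521 genes (73.8%). TPM is a share of a fixed total, and higher genes made up 40.7% of the calls as deposited but 51.4% after trimmed-mean (TMM) scaling, with 4138 higher and 3914 lower. All tested genes had a median change of -0.088 log2 units.

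Genes that rose by 2-fold or more together held 8.3, 8.56 and 8.61% of all TPM in the M2 knockout libraries and 2.28, 2.33 and 2.34% in the M0 ones. Those that fell as much held 0.964, 0.964 and 0.991% under M2 and 2.6, 2.63 and 2.62% at M0. Many rises began from a low level: 318 of the 732 genes averaged under 5 TPM at M0, 306 had 5 to 50 TPM and 108 more than that. Falls began higher, with 60 of the 327 under 5 TPM at M0, 186 at 5 to 50 TPM and 81 above. A mean of at least 5 TPM under M2 with less than 1 TPM in every M0 library was reached by 66 genes, and the opposite by 10 genes, 9 of them called.

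**Figure D1:**
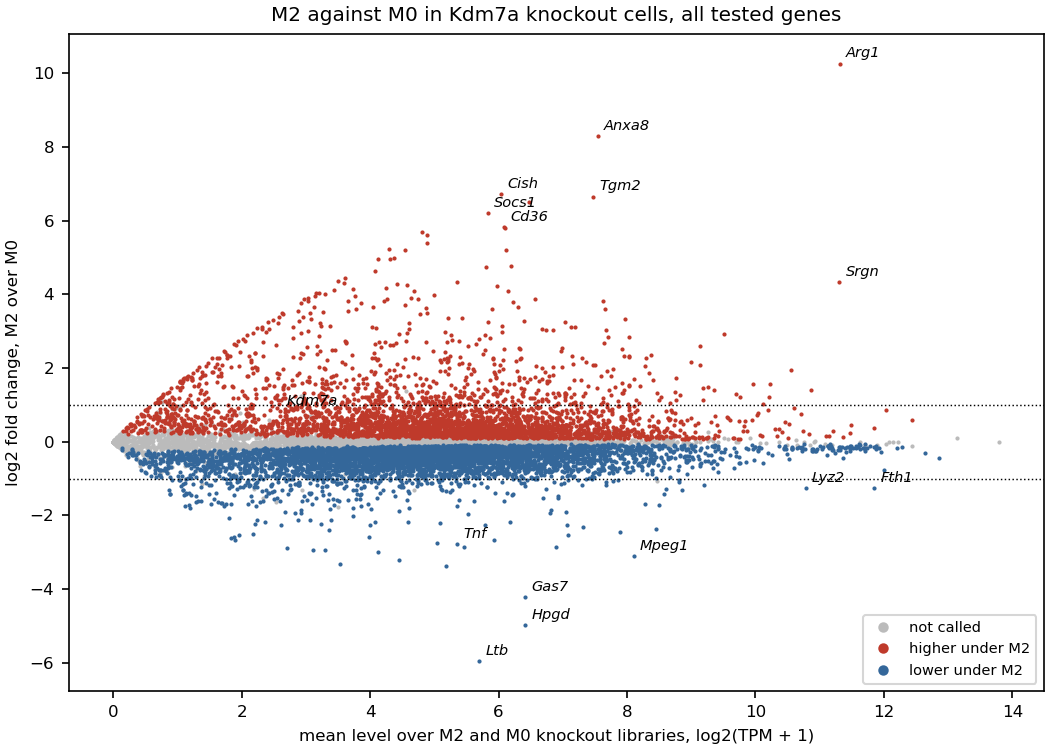
Each point is 1 of the 11548 tested genes, with its mean level over the knockout M2 and M0 libraries on the horizontal axis, as log2(TPM + 1), and its log2 fold change, M2 over M0, on the vertical axis. Red points were called higher and blue points lower at an adjusted p below 0.05, and dotted lines mark 2-fold changes. The 732 genes above the upper line outnumber the 327 below the lower one, although lower calls are more numerous overall.

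In every gene named here as having risen or fallen in knockout cells, the 3 M2 libraries lay on one side of the 3 M0 libraries and the limma adjusted p was below 0.05. Bracketed values after levels are log2 fold changes, M2 over M0 on the log2(TPM + 1) scale, with their SE where given, and this scale understates the change of genes at low levels. Counts of called list members are to be read beside the shares over all tested genes, 29.6% higher and 43.2% lower. The strongest rise was that of Arg1, the gene of arginase 1, which splits arginine into ornithine and urea and in mice is the best-known marker of macrophages exposed to IL-4. It had 5191, 5097 and 4922 TPM in the M2 knockout libraries, against 0.59, 4.83 and 6.58 TPM at M0. The groups lay far apart, and the M0 libraries differed among themselves (log2 fold change 10.26 ± 0.53, limma adjusted p = 1.21e-09). Control cells had 1831, 1941 and 1857 TPM under M2 and 0.34, 0 and 0.07 TPM at M0. The difference between the responses was not called on the log2(TPM + 1) scale (-0.44, adjusted p = 0.766). Anxa8, which encodes a calcium-dependent phospholipid-binding protein, had 360.4, 383 and 372 TPM under M2 and 0, 0.2 and 0.42 TPM at M0 in knockout cells, a change of 8.29 ± 0.10.

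Feedback inhibitors of cytokine receptors followed. Cish had 121, 131 and 135 TPM in M2 and 0.15, 0.34 and 0.2 TPM in M0 knockout libraries (log2 fold change 6.73 ± 0.064). Socs1 had 106, 113 and 115 TPM under M2 and 0.27, 0.77 and 0.54 TPM at M0 (6.21 ± 0.10). Both were near 0 in every unstimulated library and above 100 TPM in every M2 one. Tgm2, the protein-crosslinking enzyme transglutaminase 2, had 314, 385 and 351 TPM under M2 and 2.01, 2.38 and 3.13 TPM at M0 (6.65 ± 0.10). Ltb4r1, a receptor for the lipid chemoattractant leukotriene B4, had 176, 171 and 179.7 TPM under M2 and 0.86, 1.27 and 0.78 TPM at M0 (6.50 ± 0.10). Cd36, the scavenger receptor that takes up oxidised lipoprotein and fatty acids, had 129, 139 and 129 TPM under M2 and 1.27, 1.43 and 1.33 TPM at M0 (5.83 ± 0.067).

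The remaining genes of the 12 largest rises included known targets of TGF-β family signals and surface enzymes. The cytokines were given only as a mixture, so no change under M2 can be assigned to a particular cytokine. Id1, an inhibitor of basic helix-loop-helix factors, had 146, 135 and 119.5 TPM under M2 and 1.08, 1.33 and 1.91 TPM at M0 (log2 fold change 5.79 ± 0.11). Pmepa1, a membrane protein that restrains SMAD signalling, had 56.1, 56.8 and 58.3 TPM under M2 and 0.16, 0.12 and 0.3 TPM at M0. Anpep, the peptide-trimming aminopeptidase N, was listed at 49.2, 55 and 58.7 TPM under M2 and 0.06, 0.13 and 0.03 TPM at M0. These genes were almost silent without stimulation in the knockout cells. Flt1, a receptor for vascular endothelial growth factor, had 50.4, 57.7 and 61.9 TPM under M2 and 0.38, 0.31 and 0.41 TPM at M0. A4galt, which makes the glycolipid Gb3, had 34.6, 40.2 and 37.1 TPM under M2 and 0, 0.04 and 0 TPM at M0. The limma adjusted p of these 12 rises ran up to 1.21e-09, and none lost its call under any alternative tried.

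**Figure D2:**
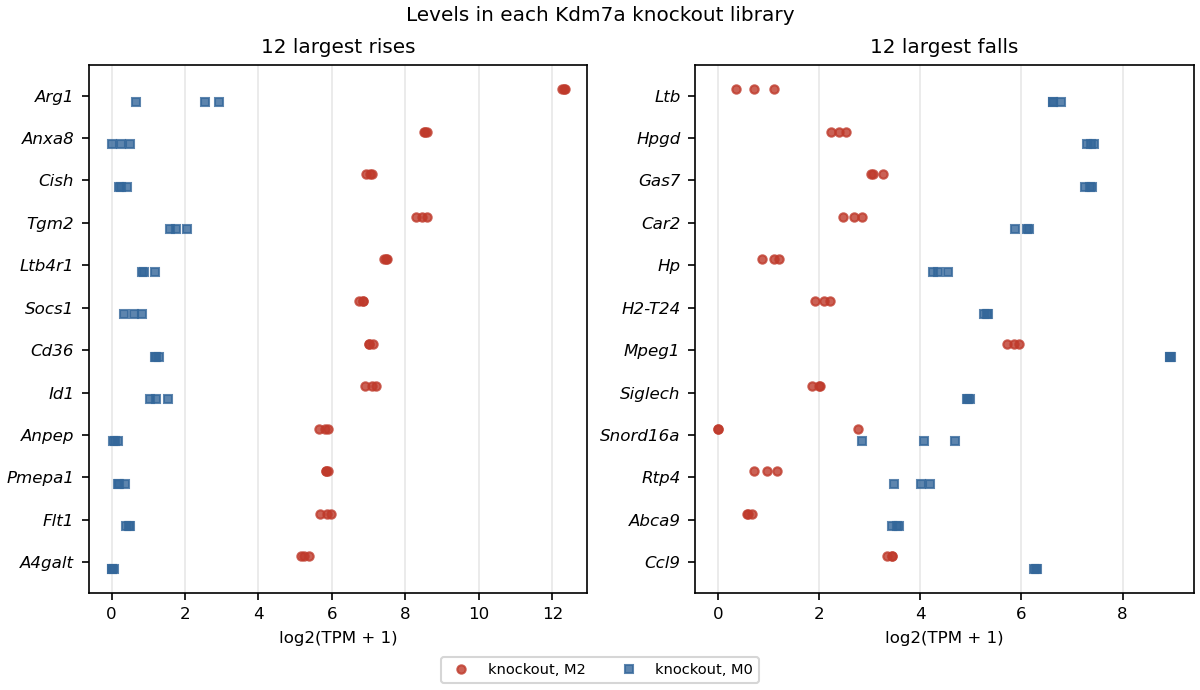
Levels of the 12 genes with the largest rises (left) and the 12 with the largest falls (right) in each knockout library, as log2(TPM + 1). Red circles are M2 and blue squares M0 libraries, 3 each. For all 24 genes the groups do not overlap, and for Snord16a (0, 5.84 and 0 TPM under M2, against 24.8, 15.9 and 6.19 TPM at M0) they nearly touch.

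The largest falls were those of Ltb and Hpgd. Ltb, which encodes the membrane cytokine lymphotoxin beta, had 0.64, 0.28 and 1.15 TPM under M2 and 98.2, 109 and 97.3 TPM at M0 in knockout cells (log2 fold change -5.95 ± 0.17, limma adjusted p = 2.22e-13). Hpgd, whose enzyme inactivates prostaglandins, had 4.79, 3.71 and 4.24 TPM under M2 and 166, 155 and 171 TPM at M0 (-4.98 ± 0.14). Gas7, a regulator of the actin cytoskeleton, had 7.18, 7.33 and 8.67 TPM under M2 and 167, 152 and 162 TPM at M0 (-4.21 ± 0.054). The M2 libraries of these 3 genes lay within a narrow band far below the M0 libraries. Mpeg1, the pore-forming protein perforin-2 of macrophage phagosomes, had 51.5, 57.1 and 60.9 TPM under M2 and 491, 487 and 496 TPM at M0 (-3.10 ± 0.042). Car2, the carbonic anhydrase 2 gene, had 5.45, 4.57 and 6.18 TPM under M2 and 67.9, 57.4 and 70.0 TPM at M0 (-3.37 ± 0.10). Ccl9, a chemokine of the macrophage inflammatory protein family, had 9.15, 9.9 and 9.87 TPM under M2 and 74.7, 78.4 and 77.4 TPM at M0.

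Siglech, a sialic acid-binding receptor, fell to 2.99, 3.04 and 2.62 TPM under M2 in knockout cells, against 29.8, 29.2 and 30.7 TPM at M0. The haptoglobin gene Hp (log2 fold change -3.31), the MHC class I-like gene H2-T24 (-3.22), the interferon-stimulated gene Rtp4 (-2.95) and the lipid transporter gene Abca9 (-2.90) completed the group together with Snord16a, a small nucleolar RNA. Only the call of Snord16a was fragile among these 12 (limma adjusted p = 0.0473): it was lost under 10 of 14 alternatives, at adjusted p of 0.0533 to 0.137. Poly(A) libraries capture such short RNAs poorly, and its reads can overlap those of its host gene.

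Among textbook M2 markers, Mrc1, the mannose receptor gene, rose but stayed low, with 2.81, 2.9 and 2.58 TPM under M2 and 0.24, 0.32 and 0.27 TPM at M0 in knockout cells (log2 fold change 1.56 ± 0.083, limma adjusted p = 1.70e-12). Chil3 and Retnla, which encode the secreted proteins Ym1 and Fizz1, were listed at 0 in all 6 libraries. The chemokine gene Ccl22 was at 0, 0.06 and 0 TPM under M2 and 0, 0.05 and 0.12 TPM at M0, and Il10 at 0.15, 0 and 0.08 TPM under M2 and 0, 0 and 0 TPM at M0. Neither was called (adjusted p = 0.646 and 0.515). Among markers of classical activation, Tnf fell to 9.44, 10.5 and 8.39 TPM under M2, against 71, 70.5 and 69.7 TPM at M0 (-2.78 ± 0.058, adjusted p = 9.93e-19). The costimulatory ligand gene Cd86 fell to 1.39, 1.18 and 1.23 TPM under M2, against 2.96, 3.04 and 2.99 TPM at M0 (-0.82 ± 0.065). Nos2, the inducible nitric oxide synthase that competes with arginase 1 for arginine, was at 0.76, 1.04 and 1.13 TPM under M2 and 0.76, 0.72 and 1.75 TPM at M0 and was not called (adjusted p = 0.94). Il1b was not called either (adjusted p = 0.642). Tgfb1 rose slightly, with 113, 154 and 148 TPM under M2 and 102, 112 and 110.0 TPM at M0 (0.34, adjusted p = 9.26e-04), and its M2 library 1 was the lowest of its group.

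Several receptors and kinases for the applied cytokines rose with them. Of 22 tested genes of such receptors and signal transducers 14 rose, 2 fell and 6 were not called. Il13ra2, the decoy receptor of IL-13, had 15, 18.4 and 14.2 TPM under M2 and 1.16, 0.63 and 0.65 TPM at M0 in knockout cells (log2 fold change 3.22 ± 0.14). Jak2, a Janus kinase, had 96.1, 103 and 104 TPM under M2 and 13.1, 13.9 and 13.5 TPM at M0 (2.81 ± 0.039), and Il4ra, the shared IL-4 and IL-13 receptor chain, had 32.8, 32.5 and 33.9 TPM under M2 and 4.63, 5.14 and 3.84 TPM at M0 (2.63 ± 0.081). Eng, a TGF-β co-receptor, rose to 3.43, 4.11 and 3.28 TPM under M2, against 0.15, 0.33 and 0.21 TPM at M0. Among the transcription factors, Stat3 averaged 84.3 ± 4.8 TPM under M2 and 39 ± 0.54 TPM at M0 (SD, n = 3 each). Stat6 averaged 151 ± 6.6 TPM under M2 and 101 ± 2.6 TPM at M0. Both rose, by 1.09 and 0.57. Smad3, the TGF-β effector, fell to 1.38 ± 0.15 TPM under M2, against 6.37 ± 0.2 TPM at M0 (-1.63), while Smad2 and Smad4 were not called.

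Of 22 tested genes associated with IL-4, IL-13 and STAT6, 20 rose and none fell, with 17 of the rises reaching 2-fold. This count leans towards rises, because 10 of the 22 were below 1 TPM in every M0 knockout library and passed the filter through other libraries, and 9 of those 10 rose. Of the other 12 genes 11 rose, 9 of them 2-fold or more, with a median change of 2.65 log2 units, against -0.107 for all tested genes that were not below 1 TPM in every M0 knockout library. The 2 that were not called were Ccl22 and Ppargc1b, and 13 of the 35 listed genes did not pass the filter of 1 TPM in at least 3 of the 18 libraries. Pdcd1lg2, the checkpoint ligand PD-L2, had 21.7, 21.2 and 24.2 TPM under M2 and 0.03, 0.08 and 0.09 TPM at M0 in knockout cells. Irf4, a transcription factor of IL-4 responses in mouse macrophages, averaged 35.1 TPM under M2 and 1.01 TPM at M0 (4.16). Klf4 averaged 287 TPM under M2 and 66.6 TPM at M0 (2.09). The lectin gene Mgl2 averaged 22.5 TPM under M2 and 0.69 TPM at M0 (3.81), and all 4 of these genes rose. Within the SOCS family 4 of 7 tested genes rose and 2 fell. Without the 2 genes below 1 TPM in every M0 knockout library, 2 of 5 rose and 2 fell. Socs3, the inhibitor of STAT3-activating receptors, had 362, 382 and 372 TPM under M2 and 28.6, 27.9 and 33.5 TPM at M0 (3.59 ± 0.054). Socs5 rose much less, to 23.4, 24.3 and 25.1 TPM under M2, against 18.1, 16.9 and 18.5 TPM at M0 (0.43).

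Genes associated with IL-10 and STAT3 rose in 13 of 18 tested cases and fell in 1. Without the 4 genes below 1 TPM in every M0 knockout library, 12 of 14 rose, with a median of 1.78. Bcl3, an atypical IκB protein, had 48.9, 52.8 and 57.7 TPM under M2 and 3.27, 3.25 and 3.49 TPM at M0 in knockout cells (3.64 ± 0.069). Sbno2, a corepressor that in mouse macrophages acts downstream of IL-10, had 192, 212 and 212 TPM under M2 and 24.3, 25 and 23.1 TPM at M0 (3.04 ± 0.043). The gene that fell was Fcgr1, described with the Fc receptors. Of 20 tested targets of TGF-β and SMAD proteins 16 rose and 2, Vegfa and Tgif1, fell. Without 4 such low genes, 13 of 16 rose, with a median of 1.68. Tgfbi, a secreted matrix protein named for its induction by TGF-β, had 19.1, 19.8 and 22.7 TPM under M2 and 0, 0.07 and 0.04 TPM at M0. Junb, an AP-1 subunit, had 399, 431 and 402 TPM under M2 and 79.1, 87.5 and 78.4 TPM at M0 (2.32 ± 0.039). Smad7, the inhibitory SMAD, averaged 5.26 TPM under M2 and 0.51 TPM at M0 (2.05). Of the 8 tested microglia genes that depend on TGF-β in mice 3 were higher and 3 lower. Among them 4 were below 1 TPM in every M0 knockout library, and 2 of those 4 rose. Of the other 4 genes 1 rose and 3 fell, with a median of -1.12. Tmem119, a membrane protein of microglia, rose to 2.87, 2.75 and 3.53 TPM under M2, against 0.26, 0 and 0.31 TPM at M0. Siglech, described above, was the most changed of them, and Gpr34 fell to 0.3, 0.16 and 0.38 TPM under M2, against 2.82, 3.28 and 2.59 TPM at M0.

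The enzymes of arginine use did not move with Arg1 as a block: 7 of 17 tested genes rose, 6 fell and 4 were not called. Gatm, which uses arginine to start creatine synthesis, rose to 951, 990.0 and 959.5 TPM under M2, against 153, 164 and 163 TPM at M0 in knockout cells (2.59 ± 0.066). Ass1, which regenerates arginine from citrulline, was listed at 8.2, 9.8 and 2.48 TPM under M2 and 0, 0 and 1.3 TPM at M0 (2.41 ± 0.69, limma adjusted p = 0.00669), and Arg2 at 2.02, 1.74 and 2.13 TPM under M2 and 0.46, 0.33 and 0.46 TPM at M0. The polyamine genes were split. Oaz2, an antizyme that restrains ornithine decarboxylase, had 54.2, 53.2 and 49 TPM under M2 and 30.5, 29.8 and 28.7 TPM at M0, and Sat1, which acetylates polyamines for export or breakdown, had 174, 159 and 165 TPM under M2 and 149, 135 and 139.8 TPM at M0, so both rose. The genes of polyamine synthesis fell. Odc1, ornithine decarboxylase, averaged 170.4 ± 3.6 TPM under M2 and 219 ± 5.7 TPM at M0 (-0.36), and the spermidine and spermine synthase genes Srm and Sms fell by 0.48 and 0.62 on the log2 scale.

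Several chains of MHC class II and their coactivator rose under M2, some of them from almost no transcript at M0. Of 15 tested genes of class II presentation 11 rose, 9 of them 2-fold or more, 2 fell and 2 were not called. All 5 that were below 1 TPM in every M0 knockout library rose, and of the other 10 genes 6 rose, with a median log2 fold change of 0.45. Ciita, the coactivator that switches on this set, had 42, 44.9 and 45.8 TPM under M2 and 0.12, 0.26 and 0.28 TPM at M0 in knockout cells (5.21 ± 0.074). H2-Aa, a class II alpha chain, had 33.1, 41.5 and 37.4 TPM under M2 and 0.1, 0.18 and 0.41 TPM at M0. H2-Eb1, a beta chain, had 14, 14.3 and 14.7 TPM under M2 and 0.19, 0 and 0.06 TPM at M0. H2-DMb1, a part of the peptide loading factor, had 8.88, 11.8 and 10.9 TPM under M2 and 0, 0.13 and 0 TPM at M0. These 4 genes were each below 1 TPM in every M0 library. H2-Ab1, another beta chain, was not, and had 44, 40.2 and 39.6 TPM under M2 and 4.32, 3.94 and 5.13 TPM at M0, and H2-DMa, the partner of H2-DMb1, had 23.4, 26.5 and 23.7 TPM under M2 and 5.71, 6.39 and 5.05 TPM at M0. Cd74, the invariant chain, was already abundant and averaged 1494 ± 44 TPM under M2 and 504 ± 27 TPM at M0 (1.57). The DNA-binding factor gene Rfx5 (-0.18) and H2-Oa (-0.24) were the 2 that fell, and with TMM scaling none did. MHC genes are close paralogs, and how shared reads were assigned is not given in the sources used here.

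Changes of MHC class I genes were small and mixed: of 19 tested genes 4 rose and 8 fell, without a call for the other 7, and with TMM scaling 6 rose and 6 fell. B2m, the light chain, had 1279, 1208 and 1218 TPM under M2 and 1621, 1797 and 1700.2 TPM at M0 in knockout cells (-0.47 ± 0.035). H2-T23 had 57.2, 61.1 and 59.2 TPM under M2 and 90.0, 95.2 and 105 TPM at M0 (-0.70). The peptide transporter gene Tap1 had 23.8, 24.7 and 26.4 TPM under M2 and 29, 37.2 and 31.5 TPM at M0 (-0.36). All 13 tested costimulatory and checkpoint genes were called, 5 higher and 8 lower. Cd274, the checkpoint ligand PD-L1, had 58.6, 58.8 and 60.4 TPM under M2 and 2.88, 3.14 and 2.53 TPM at M0 (3.97 ± 0.055). Havcr2, which encodes TIM-3, had 257, 257 and 271 TPM under M2 and 27.9, 29 and 31.7 TPM at M0 (3.11 ± 0.048). Cd40, a receptor through which T cells activate macrophages, had 38.9, 40.9 and 39.6 TPM under M2 and 5.37, 4.82 and 5.23 TPM at M0 (2.73 ± 0.053). Among the 5 genes that rose were thus the checkpoint ligand genes Cd274 and Pdcd1lg2 and the activating receptor gene Cd40, while the other 8 fell. Cd80 fell with Cd86, to 0.4, 0.89 and 0.97 TPM under M2, against 6.77, 6.99 and 6.18 TPM at M0 (-2.14 ± 0.094). Of 6 Fc receptor genes 5 rose. Fcgrt, the neonatal Fc receptor, had 108, 113 and 108 TPM under M2 and 7.29, 7.83 and 9.06 TPM at M0. The inhibitory receptor gene Fcgr2b had 505, 479 and 516 TPM under M2 and 122, 119.9 and 119.7 TPM at M0. Fcgr3 had 171, 150.0 and 167 TPM under M2 and 51.6, 49.9 and 52.6 TPM at M0. Fcgr1, the high-affinity activating receptor, fell to 29, 29.6 and 29.1 TPM under M2, against 66.8, 66.7 and 68.2 TPM at M0 (-1.17 ± 0.03).

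Interferon-stimulated genes fell in 35 of 48 cases, 14 of them by 2-fold or more, and rose in 5, with a median of -0.43. Ifi44, an antiviral effector, had 3.37, 3.45 and 3.5 TPM under M2 and 20.8, 29.8 and 27.6 TPM at M0 in knockout cells (-2.59 ± 0.081). Oas3, a sensor enzyme for double-stranded RNA, had 3.53, 4.81 and 5.35 TPM under M2 and 22.6, 27.9 and 25.9 TPM at M0 (-2.26 ± 0.093). Rtp4, the most changed of the list, had 1.24, 0.97 and 0.65 TPM under M2 and 10.2, 17.4 and 15.2 TPM at M0. Irf7, the interferon master regulator, averaged 10.4 TPM under M2 and 23.1 TPM at M0 (-1.07). Ifitm3, which blocks virus entry, averaged 147 TPM under M2 and 475 TPM at M0 (-1.68). Zbp1, a nucleic acid sensor, was the exception among the large changes and rose to 8.86, 7.69 and 8.66 TPM under M2, against 1.58, 1.77 and 1.47 TPM at M0 (1.85 ± 0.087).

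Inflammatory genes associated with M1 activation had no common direction, with 9 of 29 tested genes higher, 7 lower and 13 not called. Over all tested genes 29.6% were higher and 43.2% lower. Of the 29, 12 were below 1 TPM in every M0 knockout library, and 3 of those 12 rose. Of the other 17 genes 6 rose and 7 fell. The 64 genes that M1 stimulation raised by at least 5 log2 units from a mean below 1 TPM at M0 in the same line stood at a median of 0.0551, 0.0815 and 0.0661% of their level in M1 knockout cells in the M2 libraries and at 0.0676, 0.0733 and 0.115% in the M0 libraries, which had served to choose them. Of the 64, 11 were called higher under M2, 8 lower and 45 not. Their summed level was 268, 288 and 294 TPM under M2, against 15.3, 15.8 and 20.4 TPM at M0, and most of the M2 sum was that of Cish and Socs1, described above, with Myc next. Ccl4, a chemokine that attracts leukocytes, had 136, 135 and 139 TPM under M2 and 20.7, 21.8 and 26.3 TPM at M0 (2.53 ± 0.12). Its neighbour and close relative Ccl3 averaged 132 TPM under M2 and 109 TPM at M0 (0.27). Of 21 genes of NF-κB and its feedback 7 rose and 9 fell, near the shares over all tested genes. After TMM scaling 9 were higher and 8 lower. Nfkb1 rose to 308, 344 and 351 TPM under M2, against 95.6, 93.8 and 98 TPM at M0 (1.79 ± 0.038), and the A20-binding inhibitor gene Tnip3 to 124, 119 and 122 TPM under M2, against 35.8, 34.8 and 36.1 TPM at M0.

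Of 16 tested chemokines 6 rose, 5 fell and 5 were not called. Without the 6 genes below 1 TPM in every M0 knockout library, 4 of 10 rose and 5 fell. Cxcl16, a membrane-bound chemokine and scavenger receptor, had 116, 108 and 105 TPM under M2 and 22.5, 23.5 and 22.8 TPM at M0 in knockout cells (2.21 ± 0.046). Cxcl14 had 13.4, 12.4 and 13.2 TPM under M2 and 4.52, 6.08 and 4.39 TPM at M0 (1.24 ± 0.17). Of 11 chemokine receptors 5 rose and 3 fell, and without 4 such low genes 4 of 7 rose and 2 fell. Ccr1, a receptor of Ccl3, had 14.3, 14.4 and 14.2 TPM under M2 and 0.45, 0.42 and 0.26 TPM at M0. Cxcr4, the receptor of Cxcl12, had 77.3, 77.3 and 79.7 TPM under M2 and 11.9, 13.7 and 10.9 TPM at M0 (2.59 ± 0.11). Ccr10 fell to 0.67, 1.17 and 1.84 TPM under M2, against 2.55, 2.61 and 2.98 TPM at M0, and its groups lay close together.

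Receptors for uptake and adhesion were remodelled in both directions. Of 24 scavenger and lectin receptors 15 rose and 8 fell. Of the 24, 5 were below 1 TPM in every M0 knockout library, and 4 of those 5 rose. Of the other 19 genes 11 rose and 8 fell. Msr1, the class A scavenger receptor, had 39.4, 40.7 and 39.1 TPM under M2 and 0.81, 1.31 and 1.21 TPM at M0 in knockout cells (4.28 ± 0.065). Stab1, which clears modified proteins, had 10.8, 12.8 and 14 TPM under M2 and 0.13, 0.16 and 0.14 TPM at M0 (3.56 ± 0.094). The inhibitory lectin gene Clec12a fell to an average of 7.47 TPM under M2, against 56.3 TPM at M0 (-2.76). Of 11 integrins 7 rose and 2 fell: Itgax, which encodes CD11c, had 11.1, 15.2 and 13.2 TPM under M2 and 0, 0.07 and 0.05 TPM at M0. Itga5, the fibronectin receptor chain, had 195, 221 and 229 TPM under M2 and 35.4, 35.4 and 36.4 TPM at M0 (2.55 ± 0.048). Itgav rose to 60.7, 71.5 and 75.6 TPM under M2, against 16, 14.2 and 14.8 TPM at M0 (2.13). Itga4, a part of the receptor for VCAM-1, fell to 64.2, 75.3 and 78.9 TPM under M2, against 442, 356 and 409 TPM at M0 (-2.45 ± 0.079).

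Matrix proteases and their regulators rose in 10 of 14 tested cases and fell in 1. Of the 14, 6 were below 1 TPM in every M0 knockout library, Timp1 among them, and 3 of those 6 rose. Of the other 8 genes 7 rose and 1 fell, with a median of 1.26. Timp1, an inhibitor of matrix metalloproteinases, had 21.2, 23.6 and 21.1 TPM under M2 and 0, 0.24 and 0.25 TPM at M0 in knockout cells. Adam8, a sheddase, had 176, 193 and 201 TPM under M2 and 21.8, 21.1 and 24 TPM at M0. Plaur, the urokinase receptor, had 122, 128 and 125 TPM under M2 and 24.4, 28.1 and 27.6 TPM at M0. These rises spanned an inhibitor, a protease and a receptor that localises proteolysis. Of 16 genes of osteoclasts and cell fusion, a fate RAW264.7 cells can take, 10 rose and 4 fell. Ocstamp had 49.2, 55.5 and 56.2 TPM under M2 and 3.28, 3.65 and 4.63 TPM at M0 (3.50 ± 0.11). Acp5, the tartrate-resistant phosphatase, had 13.8, 12.9 and 11.8 TPM under M2 and 2.01, 1.1 and 1.04 TPM at M0 (2.56 ± 0.13). The defining protease gene Ctsk stood at 0.86, 0.51 and 1.24 TPM under M2 and was listed at 0 in each M0 library, Calcr was listed at 0 in all 6, and Dcstamp fell to 1.03, 0.77 and 1.23 TPM under M2, against 5.41, 4.69 and 6.47 TPM at M0. Cd81, a tetraspanin, rose to 423, 441 and 445 TPM under M2, against 85.5, 87.7 and 87.3 TPM at M0.

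**Figure D3:**
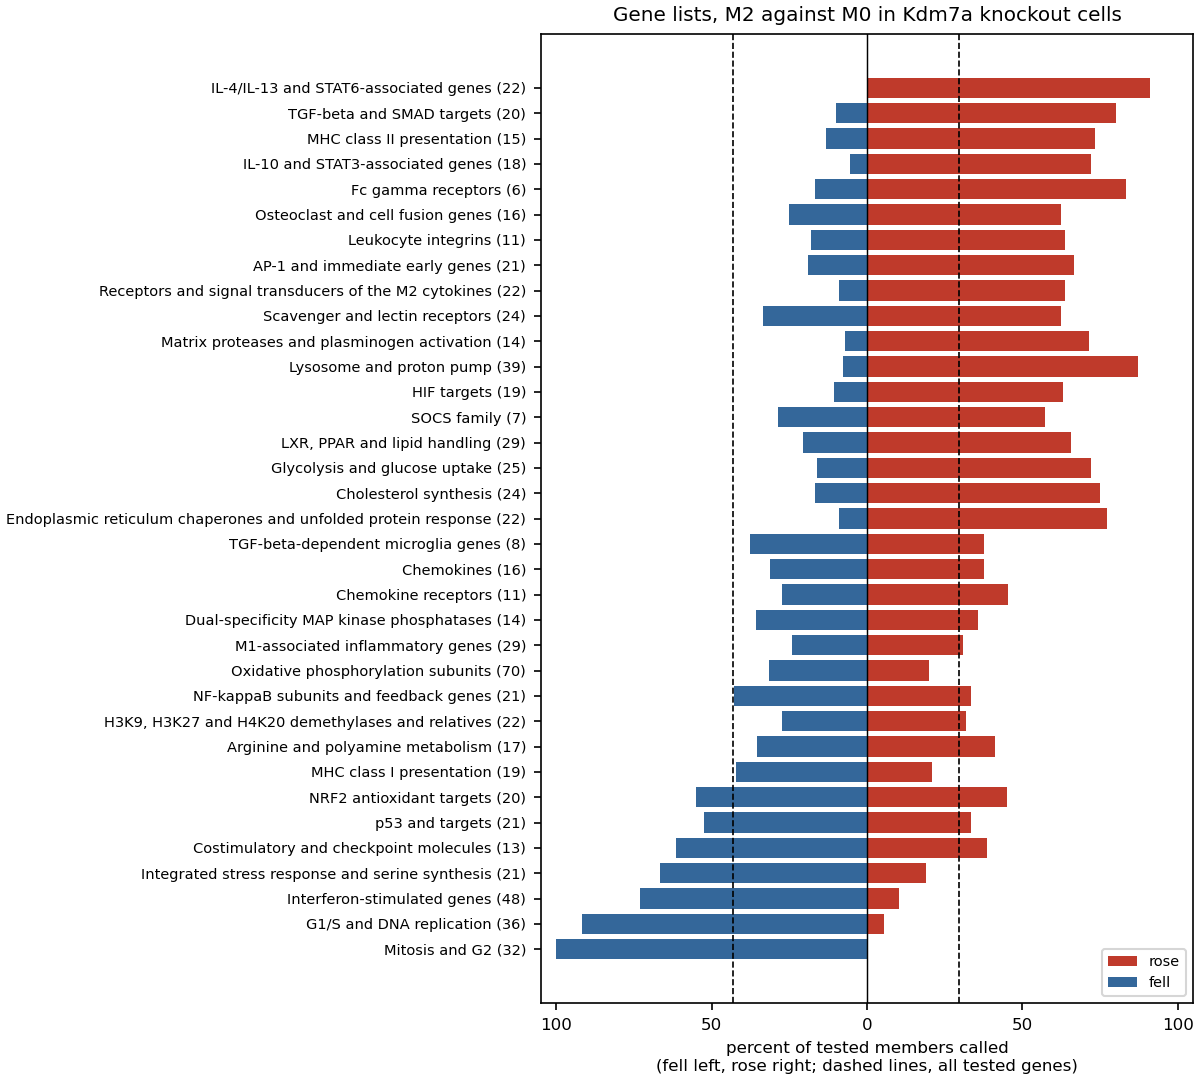
Share of the tested members of each of 35 gene lists that rose (red, to the right) or fell (blue, to the left) under M2 against M0 in knockout cells, with the number tested in brackets and the lists in order of their median log2 fold change. Dashed lines give the shares over all tested genes, 29.6% higher and 43.2% lower. All 32 mitosis genes lie on the lower side, and 20 of 22 genes associated with IL-4, IL-13 and STAT6 on the higher side, 10 of the 22 having been below 1 TPM in every M0 knockout library.

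Genes of lipid handling by the nuclear receptors LXR and PPAR rose in 19 of 29 tested cases and fell in 6. Nr1h3, which encodes LXRα, had 22.2, 19.9 and 20.7 TPM under M2 and 2.74, 3.41 and 3.68 TPM at M0 in knockout cells (2.36 ± 0.094). The lysosomal lipase gene Lipa had 831, 834 and 848 TPM under M2 and 185, 188 and 189 TPM at M0 (2.15 ± 0.027). Pltp, a phospholipid transfer protein, had 268, 298 and 309 TPM under M2 and 65.8, 73.3 and 66.4 TPM at M0. On the other side, Apoe averaged 2.01 TPM under M2 and 7.65 TPM at M0 (-1.54). Lpl, lipoprotein lipase, averaged 62.7 TPM under M2 and 129 TPM at M0 (-1.03). Pparg did not pass the filter. Cholesterol synthesis genes rose in 18 of 24 cases by small amounts, with a median of 0.26. The most changed were Tm7sf2, at 20.9, 20.7 and 20.4 TPM under M2 and 9, 11 and 9.34 TPM at M0, and Pmvk, at 188, 199 and 187 TPM under M2 and 108, 98 and 106 TPM at M0. Ebp (0.77) and Mvd (0.65) came next.

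The lysosome and its proton pump rose almost as a whole: 34 of 39 tested genes were higher, 3 lower and 2 not called, with a median of 0.52. Besides Lipa, the cholesterol exporter gene Npc1 had 56, 71.8 and 74.2 TPM under M2 and 21.9, 21.7 and 22.6 TPM at M0 in knockout cells. Mitf, a transcription factor of lysosomal genes, had 26.9, 31.7 and 32 TPM under M2 and 9.43, 10.4 and 9.64 TPM at M0. Cathepsin D (Ctsd) averaged 1214 ± 51 TPM under M2 and 524 ± 8.2 TPM at M0 (1.21). The asparagine-specific protease gene Lgmn averaged 954 ± 21 TPM under M2 and 359 ± 4.3 TPM at M0 (1.41). The 3 that fell were Tfeb (-0.67), Lamp1 (-0.47) and Psap (-0.21).

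Glycolysis and glucose uptake rose in 18 of 25 tested cases and fell in 4. Pfkfb4, which makes an activator of phosphofructokinase, had 114, 119 and 121 TPM under M2 and 12.4, 12.3 and 12.9 TPM at M0 in knockout cells (3.13 ± 0.051). Hk3, a hexokinase, had 80.0, 87.7 and 92.2 TPM under M2 and 32.5, 34.7 and 35.1 TPM at M0. The glucose transporter gene Slc2a1 had 297, 326 and 327 TPM under M2 and 136, 147 and 154 TPM at M0 (1.11 ± 0.043). Aldoc rose by 1.15. Hypoxia-inducible factor (HIF) targets rose in 12 of 19 cases. Egln3, a prolyl hydroxylase that limits HIF, had 29, 32.7 and 27.1 TPM under M2 and 11.3, 10.8 and 13.3 TPM at M0. The mitophagy receptor gene Bnip3 had 533, 562 and 548 TPM under M2 and 243, 266 and 292 TPM at M0. Ero1l rose by 1.01. Of 70 subunits of oxidative phosphorylation, 14 rose, 22 fell and 34 were not called. This direction depended on the scaling, since 25 rose and 8 fell with TMM factors. Ndufv3 (0.60), Ndufa5 (-0.42), Ndufs4 (-0.37) and Ndufb3 (-0.32) changed most.

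Antioxidant targets of NRF2 were split, 9 higher and 11 lower of 20. Gclm, a subunit of the enzyme that starts glutathione synthesis, had 130.2, 126 and 137 TPM under M2 and 41.3, 41.8 and 42 TPM at M0 in knockout cells. Hmox1, which degrades haem, had 338, 379 and 373 TPM under M2 and 113, 121 and 123 TPM at M0 (1.60 ± 0.042). Fth1, the ferritin heavy chain that stores iron, fell to 2012, 2206 and 2264 TPM under M2, against 5152, 5279 and 5168 TPM at M0 (-1.27 ± 0.036). The integrated stress response and serine synthesis fell in 14 of 21 tested cases and rose in 4. Phgdh, the first enzyme of serine synthesis, fell to 344, 332 and 353 TPM under M2, against 606, 671 and 613 TPM at M0 (-0.87 ± 0.039), and the cystine importer gene Slc7a11 to 2.18, 3.17 and 3.07 TPM under M2, against 6.79, 7.35 and 6.94 TPM at M0. Atf3 and Cebpb, stress-induced transcription factors that cytokines also induce, rose, Atf3 to 196, 205 and 205 TPM under M2, against 44.4, 52.5 and 49.6 TPM at M0, and Cebpb to 129, 142 and 241 TPM under M2, against 57.5, 43.2 and 40.5 TPM at M0. M2 library 3 was the highest for Cebpb.

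Proliferation genes fell. All 32 tested genes of mitosis and the G2 phase were lower, 2 of them by 2-fold or more, with a median of -0.71, and 33 of 36 genes of the G1/S transition and DNA replication fell, with a median of -0.68. Mki67, the antigen of cycling cells, had 91.3, 118 and 128 TPM under M2 and 275, 198 and 202 TPM at M0 in knockout cells (-0.99 ± 0.14, limma adjusted p = 2.08e-05). Cenpf, a kinetochore protein, had 20.7, 27 and 26.7 TPM under M2 and 64.5, 50.8 and 53.7 TPM at M0 (-1.15 ± 0.092). The mitotic kinase gene Aurkb had 75.3, 69.5 and 74.8 TPM under M2 and 152, 162 and 156 TPM at M0. The checkpoint gene Mad2l1 had 68.6, 63.9 and 63.5 TPM under M2 and 127, 128 and 127 TPM at M0. Tk1, thymidine kinase, fell to 132, 118 and 123 TPM under M2, against 279.6, 288 and 282 TPM at M0, and Uhrf1 by 1.03 on the log2 scale. The D-type cyclins parted: Ccnd2 fell to 16.2, 19.6 and 19.5 TPM under M2, against 40.3, 42.8 and 41.4 TPM at M0, and Ccnd3 rose to 252, 266 and 278 TPM under M2, against 118, 131 and 128 TPM at M0 (1.07 ± 0.042). Of 21 genes of p53 and its targets 7 rose and 11 fell, not far from the shares over all tested genes, 29.6% higher and 43.2% lower. Fas, the death receptor, rose to 28.3, 31.1 and 29.1 TPM under M2, against 1.31, 1.68 and 1.31 TPM at M0 (3.65 ± 0.10), and Pmaip1, which encodes the death-promoting protein Noxa, fell to 9.44, 10.4 and 9.77 TPM under M2, against 35.4, 36.7 and 38.8 TPM at M0 (-1.80 ± 0.055). Sesn2 and Btg2 fell by 0.84 and 0.81.

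Immediate early transcription factors rose in 14 of 21 tested cases and fell in 4. All 4 that were below 1 TPM in every M0 knockout library rose, and of the other 17 genes 10 rose and 4 fell. Myc, a driver of cell growth, had 16.2, 16.3 and 17.8 TPM under M2 and 0.71, 0.49 and 0.44 TPM at M0 in knockout cells (3.52 ± 0.081). Fosl2 had 62.6, 77.7 and 75 TPM under M2 and 9.04, 10.1 and 10.6 TPM at M0 (2.73 ± 0.068). Dual-specificity phosphatases and other inhibitors of MAP kinase signalling were split, 5 higher and 5 lower of 14, with 6 higher and 3 lower after TMM scaling. Dusp4 rose to 62.5, 67.7 and 69.2 TPM under M2, against 5.24, 6.21 and 5.36 TPM at M0 (3.35 ± 0.054), Dusp6 fell to 10.5, 11.2 and 11.4 TPM under M2, against 53, 56.9 and 54.8 TPM at M0 (-2.22 ± 0.053), Dusp2 fell by 1.23 and Dusp14 rose by 0.53. Of 22 tested histone demethylases, Kdm7a among them, 7 rose, 6 fell and 9 were not called. Over all tested genes 29.6% were higher and 43.2% lower. Kdm5b, which acts on lysine 4 of histone H3, had 17.7, 22.4 and 22.8 TPM under M2 and 4.95, 4.99 and 5.96 TPM at M0 (1.80 ± 0.073). Kdm6b, an H3K27 demethylase induced in activated macrophages, rose to 16.7, 20.2 and 19.7 TPM under M2, against 10.8, 9.14 and 10.0 TPM at M0 (0.85). Phf8, the closest relative of Kdm7a together with Phf2, fell to 16.7, 19.7 and 20.5 TPM under M2, against 47.6, 48 and 49.5 TPM at M0 (-1.31 ± 0.053), and Phf2 fell by 0.37.

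The M2 response of knockout cells was set against that of control cells, which shares no library with it. In control cells 7557 genes were called (65.4%), 3279 higher (28.4%) and 4278 lower (37%). A 2-fold change was reached by 7.13%, of which 627 were higher (5.43%) and 196 lower (1.7%). The 559 genes that rose by 2-fold or more in both were 76.4% of those in knockout cells and 89.2% of those in control cells. For falls the 170 shared genes were 52% of those in knockout and 86.7% of those in control cells. Across the 11548 genes the fold changes correlated at r = 0.935, as a description, since genes are not independent replicates. The difference between the responses, tested as the interaction of genotype and condition, was called for 1629 genes (14.1%), 815 with a more positive change in knockout cells (7.06%) and 814 with a more negative one (7.05%). With TMM scaling these were 1019 and 600. A difference of 2-fold or more was called for 0.658% of genes, 57 more positive (0.494%) and 19 more negative (0.165%), the second number being 29 without control M2 library 3. With a pseudocount of 0.1 TPM in place of 1 TPM, these numbers were 76 and 53. Calls in opposite directions in knockout and control cells were made for 53 genes, 30 higher and 23 lower in knockout cells, and the interaction was called for all 53.

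The named genes with the most different responses were spread over several functions. Flt1 rose by 5.39 log2 units in knockout cells and 3.06 in control cells, where it had 12.2, 10.9 and 11.5 TPM under M2 and 0.46, 0.48 and 0.56 TPM at M0 (difference 2.33 ± 0.12, limma adjusted p = 1.30e-10). Cystm1, which encodes a small membrane protein, had 25.4, 23.2 and 24.1 TPM under M2 and 0.59, 0.51 and 0.2 TPM at M0 in knockout cells, against 4.55, 5.89 and 4.06 TPM under M2 and 0.45, 0.38 and 0.54 TPM at M0 in control cells (difference 2.16 ± 0.22). Anpep had 12.6, 10.8 and 11.8 TPM under M2 in control cells and was listed at 0 at M0 (2.01 ± 0.12). For these 3 genes the M0 levels of both genotypes were below 1 TPM, and the M2 levels were higher in every knockout than in every control library. Msr1 was different: control cells already had 11.8, 12.1 and 13.3 TPM at M0 and 62.9, 66.3 and 67.6 TPM under M2, both above the knockout levels, so the larger fold change in knockout cells (1.96) went with a lower M0 level. By the same measure Timp1 had 20.7, 22.4 and 22.3 TPM under M2 in control cells, close to the knockout level, and 2.04, 2.44 and 2.08 TPM at M0 (difference 1.47). Dhrs9, a retinol and steroid dehydrogenase, had 59.1, 71.7 and 69.3 TPM under M2 and 8.55, 8.64 and 10.0 TPM at M0 in knockout cells, against 45.1, 42.8 and 41.6 TPM under M2 and 20.5, 22.6 and 21.4 TPM at M0 in control cells (1.77 ± 0.11).

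Tgm2 had 70.7, 86.6 and 77.6 TPM under M2 and 2.04, 1.72 and 1.65 TPM at M0 in control cells, so it ended higher in knockout cells from a similar start (difference 1.83 ± 0.14, adjusted p = 6.94e-08). Ccl4 had 26.6, 33.8 and 31.7 TPM under M2 and 16.6, 19.3 and 24.7 TPM at M0 in control cells (1.94 ± 0.17). The M0 levels of Ccl4 overlapped between the genotypes, and its M2 levels did not. The symbol H2-Ea-ps denotes an MHC class II chain gene annotated as a pseudogene, and whether it is one in RAW264.7 cells was not tested. H2-Ea-ps had 39.9, 39.5 and 37.9 TPM under M2 and 0.15, 0.12 and 0.58 TPM at M0 in knockout cells. Control cells had 7.39, 8.35 and 6.48 TPM under M2 and 0, 0 and 0 TPM at M0 (difference 1.92). With a pseudocount of 0.1 TPM in place of 1 TPM, this difference was no longer called (0.65, adjusted p = 0.488), nor were those of H2-Aa (0.31, adjusted p = 0.77) and Cd36 (0.13, adjusted p = 0.754). The most negative called difference was that of Siglech (-2.31 ± 0.10, adjusted p = 3.34e-11), which had 5.91, 6.28 and 5.65 TPM under M2 and 10.3, 10.8 and 9.42 TPM at M0 in control cells. Knockout cells thus had more Siglech than control cells at M0 and less under M2.

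Smaller rises in knockout cells marked Il4i1, a secreted amino acid oxidase, with 75.2, 74.5 and 80.6 TPM under M2 and 2.18, 3.8 and 2.76 TPM at M0, against 64.2, 62.8 and 59.8 TPM under M2 and 0.47, 0 and 0 TPM at M0 in control cells (difference -1.46 ± 0.28). The M2 levels were higher in knockout cells, and so were the M0 levels. Cxcr4 likewise had 67.2, 66 and 64.9 TPM under M2 and 2.99, 3.25 and 3.08 TPM at M0 in control cells (-1.44 ± 0.15). Serpina3g, an intracellular protease inhibitor, had 2.12, 1.67 and 2.16 TPM under M2 and 0.16, 0.14 and 0.05 TPM at M0 in knockout cells, against 8.83, 8.17 and 7.73 TPM under M2 and 0.18, 0.1 and 0.24 TPM at M0 in control cells (-1.56 ± 0.10). Spsb1, an adaptor of a ubiquitin ligase, had 3.39, 3.96 and 4.15 TPM under M2 and 0.21, 0.18 and 0.17 TPM at M0 in knockout cells, against 15.6, 12.3 and 12.4 TPM under M2 and 0.2, 0.2 and 0.22 TPM at M0 in control cells (-1.55 ± 0.14). For Serpina3g and Spsb1 the M0 levels were alike in the genotypes and the M2 levels lower in every knockout library. Larger falls in knockout cells were found for Kmo, an enzyme of tryptophan breakdown (difference -1.20 ± 0.17), the copper carrier gene Cp (-1.49 ± 0.11) and the small nucleolar RNA Snora65 (-1.91 ± 0.38). Snora65 was listed at 0 in each M2 knockout library and at 4.72, 6.06 and 4.71 TPM at M0, against 2.27, 4.85 and 6.32 TPM under M2 and 8.15, 11.4 and 4.31 TPM at M0 in control cells. Cp had 0.81, 0.92 and 0.91 TPM under M2 and 7.05, 7.7 and 7.66 TPM at M0 in knockout cells, against 0.74, 0.55 and 0.51 TPM under M2 and 1.38, 1.93 and 1.42 TPM at M0 in control cells. Kmo had 1.87, 2 and 3 TPM under M2 and 10.8, 11.5 and 10.2 TPM at M0 in knockout cells, against 2.04, 2.66 and 2.31 TPM under M2 and 4.15, 3.81 and 4.84 TPM at M0 in control cells. For Cp and Kmo the M2 levels overlapped or nearly met between genotypes and the M0 levels were higher in knockout cells, while for Snora65 the M0 levels overlapped and the M2 levels were lower in knockout cells.

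**Figure D4:**
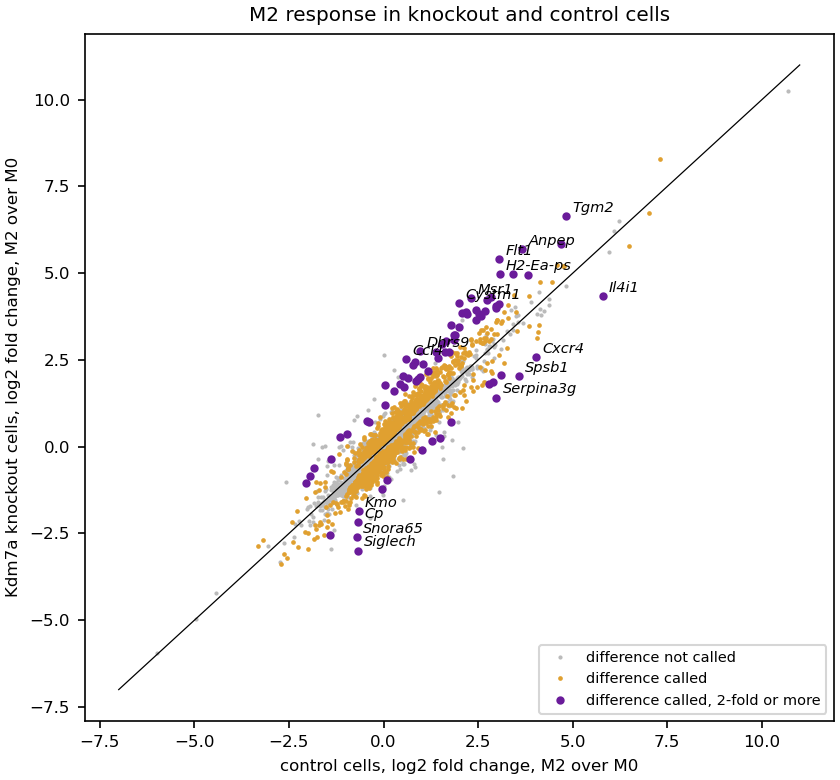
Log2 fold change, M2 over M0, in knockout cells (vertical axis) against that in control cells (horizontal axis) for the 11548 tested genes, with the line of equal response. Grey points had no called difference, orange points a called one and purple points a called one of 2-fold or more. Most purple points above the line are rises that were larger in knockout cells, such as Flt1 and Anpep, and those below it include Siglech and Il4i1.

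Chaperones of the endoplasmic reticulum and genes of the unfolded protein response rose in 17 of 22 tested cases and fell in 2 in knockout cells, and rose in 5 and fell in 10 in control cells. The difference was called for 18 of the 22, all more positive in knockout cells, against 7.06% of all tested genes. The number was 15 to 19 over the alternatives tried. Hspa5, the main chaperone BiP, averaged 1482 ± 21 TPM under M2 and 1168 ± 36 TPM at M0 in knockout cells, against 1526 ± 96 TPM under M2 and 1792 ± 43 TPM at M0 in control cells (SD, n = 3 each; difference 0.58 ± 0.051). Creld2, a secreted chaperone-like protein, had 192, 192 and 194 TPM under M2 and 140.1, 137 and 139.6 TPM at M0 in knockout cells, against 209.5, 209.9 and 221 TPM under M2 and 234, 224 and 214 TPM at M0 in control cells (0.54 ± 0.054). Calr, calreticulin, had 1655, 1731 and 1716 TPM under M2 and 1285, 1148 and 1246 TPM at M0 in knockout cells, against 1740.2, 1716 and 1808 TPM under M2 and 1668, 1573 and 1636 TPM at M0 in control cells. Sel1l, a part of the degradation machinery, and Dnajb9 rose by 0.68 and 0.64 in knockout cells. The summed level of the 23 listed genes was 9467, 9651 and 9737 TPM under M2 and 8343, 7919 and 8314 TPM at M0 in knockout cells, against 9999.9, 9883 and 10513 TPM under M2 and 10969, 10882 and 11093 TPM at M0 in control cells. The M0 sums of the genotypes lay furthest apart, and the M2 sums drew closer. Knockout against control cells at M0, a comparison that shares the M0 libraries, had 20 of the 22 genes lower and none higher, and under M2 6 lower and 1 higher.

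MHC class II genes had 8 of 15 differences called as more positive in knockout cells and 1 as more negative. Over all tested genes 7.06% of differences were more positive and 7.05% more negative, and each list count below is to be read beside these shares. The class II count depends on the pseudocount. With 0.1 TPM the differences of H2-Aa (0.31, limma adjusted p = 0.77) and Ciita (-0.23, limma adjusted p = 0.728) were not called. Those of H2-Eb1 and H2-DMb1 were still called. Their summed level was 4169, 4163 and 4117 TPM under M2 and 1863, 1886 and 1943 TPM at M0 in knockout cells, against 3493, 3452 and 3484 TPM under M2 and 1907, 1939 and 1903 TPM at M0 in control cells. The M0 sums overlapped and the M2 sums did not. Interferon-stimulated genes were more negative in knockout cells for 24 of 48 and more positive for 3, against 7.05% of all tested genes. Ifi44 had 5.26, 5.56 and 5.12 TPM under M2 and 19.8, 21.4 and 20.2 TPM at M0 in control cells (difference -0.83 ± 0.11). Mitosis genes were more negative for 11 of 32 and G1/S genes for 11 of 36. Over all tested genes, more negative differences numbered 814 as deposited, 600 with TMM scaling and 581 with median-ratio scaling. Counts of more negative differences can therefore shift with the scaling. The mitosis sum was 2873, 2921 and 2939 TPM under M2 and 4846, 4864 and 4862 TPM at M0 in knockout cells, against 3539, 3492 and 3521 TPM under M2 and 4777, 4842 and 4787 TPM at M0 in control cells. The mitosis sums of the genotypes lay close together at M0 and apart under M2, lower in knockout cells. Of the 6 Fc receptor genes 5 had a more positive difference and none a more negative one, and lysosomal genes had 16 of 39 differences more positive and 4 more negative.

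**Figure D5:**
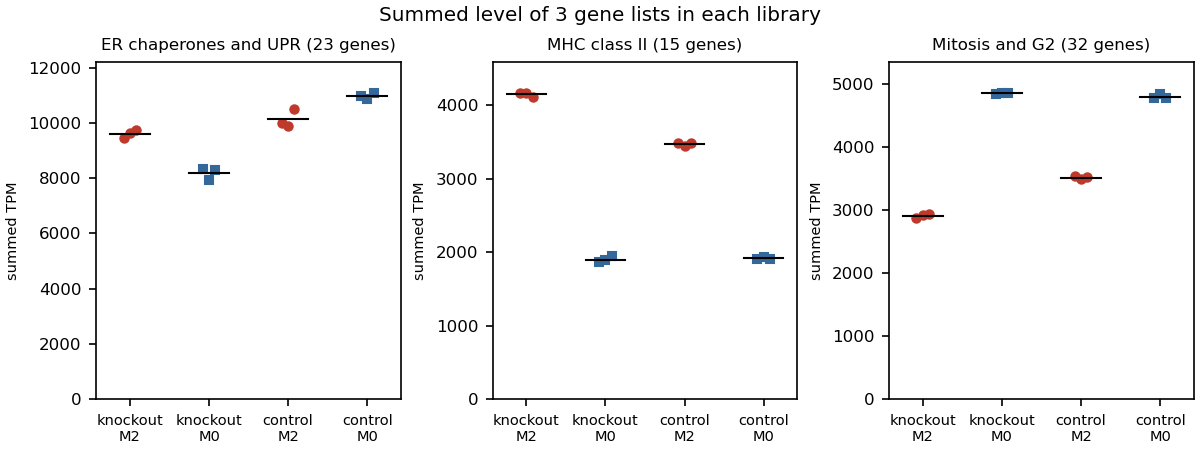
Summed TPM of 3 gene lists in each library, with knockout M2, knockout M0, control M2 and control M0 from left to right in each panel and the mean of 3 libraries as a line. Red circles are M2 and blue squares M0 libraries. The chaperone sums of knockout cells are 7919 to 8343 TPM at M0, below the 10882 to 11093 TPM of control cells, while the class II and mitosis sums of the genotypes differ under M2.

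M1 stimulation of the same knockout line, a comparison that shares the M0 libraries, gives the levels of the leading genes under another polarization. Arg1 averaged 5070.2 TPM under M2 and 1.39 TPM under M1. Ciita averaged 44.2 TPM under M2 and 0.04 TPM under M1, and Pdcd1lg2 22.4 TPM under M2 and 0.0933 TPM under M1. These 3 genes were high under M2 alone. Cish averaged 129 TPM under M2 and 46.2 TPM under M1, and Socs1 111 TPM under M2 and 56.5 TPM under M1. Both inhibitors were thus high under either stimulus. Cd274 averaged 59.3 TPM under M2 and 392 TPM under M1, and Cd40 39.8 TPM under M2 and 817 TPM under M1, higher under M1. Tnf, which fell under M2, averaged 9.44 TPM under M2 and 1542 TPM under M1, and Mpeg1 56.5 TPM under M2 and 1472 TPM under M1. Hpgd was low under both, at 4.25 TPM under M2 and 1.14 TPM under M1.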

How the data were processed

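RNA for 18 RAW264.7 libraries was isolated on columns, selected for poly(A) and sequenced, per the labels' protocols. The authors deposited 1 table of TPM, the share of each transcript corrected for its length, for 24411 gene symbols. The submitters' processing notes name Trim Galore and the build mm10. Which aligner, counter and annotation they used is not given in the sources used here. TPM keeps no depth, so depth is unknown and no counting interval was computed. A gene at 0 in every library of a group is described as listed at 0, since a 0 can be a failed estimate.

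All genes with at least 1 TPM in at least 3 libraries (11548) were fitted on log2(TPM + 1) with limma 3.58.1 in R 4.3.3, with 1 mean per group over 18 libraries, a mean-variance trend and robust moderation. Tests were two-sided with Benjamini-Hochberg adjustment over all tested genes, called below 0.05. The contrasts were M2 against M0 in knockout cells, the same in control cells, and their difference. The fit was tested on simulated data. Named genes were Kdm7a, the 12 largest rises and falls with at least 5 TPM and no overlap between groups, 14 markers, up to 4 called genes per list, and the 8 largest differences in each direction. Genes given only by a mean level or a fold change, and Cd79a, Ctsk, Dcstamp, Oaz2, Sat1, H2-Ab1 and H2-DMa, were added after their values were seen. The members and lists were chosen with earlier results of these data known, in part from an earlier analysis. A few genes that this rule names are not reported here. Lists were described by counts without a set test. List symbols were matched to the table through RefSeq names, and promoter sequences are RefSeq's on GRCm38.p6, while TPM rest on mm10. Alternatives were another pseudocount, filters, TMM and median-ratio scaling, a fit without trend, only the compared groups, a replicate block, and leaving out each M2 or M0 library. M1 libraries were not left out. No alternative was added after the data were seen.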

Additional observations from a re-analysis of the deposited data

Results flagged for a closer look

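For 26 genes described above the M2 response differed between knockout and control cells by 2-fold or more, by the interaction test of the same limma fit. Values are differences of log2 fold changes, knockout minus control. The rise was larger in knockout cells for Flt1 (2.33), Cystm1 (2.16), Anpep (2.01), Msr1 (1.96), Ccl4 (1.94), H2-Ea-ps (1.92), Tgm2 (1.83), Dhrs9 (1.77), Ocstamp (1.73), H2-Eb1 (1.63), H2-Aa (1.54), H2-DMb1 (1.47), Timp1 (1.47), Il13ra2 (1.32), Itgax (1.20), Fas (1.20), Cd36 (1.14) and Plaur (1.01). In control cells Ocstamp had 15.4, 12.6 and 15.3 TPM under M2 and 3.65, 3.22 and 3.64 TPM at M0, and Fas had 10.3, 12 and 10.1 TPM under M2 and 1.59, 0.77 and 1.2 TPM at M0. Il13ra2 had 5.71, 4.9 and 7.14 TPM under M2 and 0.54, 1.09 and 0.94 TPM at M0 there, and Plaur 96.4, 108 and 103 TPM under M2 and 41.8, 45.1 and 47.3 TPM at M0. The response was more negative in knockout cells for Siglech (-2.31), Snora65 (-1.91), Serpina3g (-1.56), Spsb1 (-1.55), Cp (-1.49), Il4i1 (-1.46), Cxcr4 (-1.44) and Kmo (-1.20). The calls for H2-Aa, H2-Ea-ps and Cd36 were lost with a pseudocount of 0.1 TPM.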

How the results depend on the processing

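Of 152 named genes tested for the knockout response, 151 kept their direction and call under all 14 alternatives, the exception being Snord16a, and 34 called genes changed sign with TMM scaling. With a pseudocount of 0.1 TPM, 533 genes fell by 2-fold or more and 53 had a more negative 2-fold difference between genotypes, and the differences of Anxa8 (-0.077, adjusted p = 0.962) and Ciita (-0.23, adjusted p = 0.728) turned negative without being called. Leaving out 1 knockout M2 or M0 library gave 3216 to 3542 genes higher, 4666 to 4931 lower, 710 to 765 higher by 2-fold and 321 to 344 lower by 2-fold. For the difference, leaving out 1 M2 or M0 library of either genotype gave 654 to 1126 more positive and 573 to 865 more negative genes. Of these 53 to 62 and 18 to 29 differed by 2-fold, the 29 without control M2 library 3. With a replicate block the counts were 3420 higher and 4990 lower, 730 and 324 by 2-fold, and for the difference 788 and 771, 57 and 19 by 2-fold. Same-numbered M2 and M0 knockout libraries deviated together by r of -0.0188, -0.014 and 0.122, and differently numbered ones by -0.123 to 0.131. With 3 libraries per group, such values cannot settle whether libraries of the same number belong together. With median-ratio scaling 3718 genes were higher and 4515 lower. Over all named genes and alternatives, the difference between genotypes lost its call 114 times with its sign kept, besides the 2 that turned negative. Depth is unknown for TPM, so what it limits could not be given.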

Other observations

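Ranked by the shift in mean TPM rather than by fold change, the M2 response of knockout cells was led by a few very abundant transcripts, chosen after their values were seen. Srgn, the core protein of the granule proteoglycan serglycin, had 4815 ± 139 TPM under M2 and 238 ± 11 TPM at M0 (SD, n = 3 each; log2 fold change 4.33 ± 0.032), a shift second only to that of Arg1. Actb, cytoplasmic actin, had 5389.7 ± 221 TPM under M2 and 2988 ± 83 TPM at M0, and Ftl1, the ferritin light chain, 6686 ± 348 TPM under M2 and 4405 ± 40.5 TPM at M0. Anxa2, a membrane-binding annexin, had 2395 ± 78 TPM under M2 and 618 ± 22 TPM at M0. Gpx1, which reduces peroxides, had 2704 ± 114 TPM under M2 and 1012 ± 25 TPM at M0, Fxyd5, a regulator of the sodium pump, 1782 ± 57 TPM under M2 and 602 ± 24 TPM at M0, and Picalm, an adaptor of clathrin-mediated uptake, 1287 ± 58 TPM under M2 and 168 ± 4.1 TPM at M0. Actb is often used to normalise other assays, and here it rose with M2. The largest falls by shift were those of Fth1, the ferritin heavy chain, so the ferritin chains moved in opposite directions, of Ptma, which encodes prothymosin alpha, with 6279 ± 334 TPM under M2 and 8486 ± 257 TPM at M0, of the chromatin chaperone gene Npm1, with 3027 ± 83 TPM under M2 and 5156 ± 146 TPM at M0, and of Lyz2, the lysozyme of macrophages, with 1034 ± 57 TPM under M2 and 2482 ± 14 TPM at M0. Adgre1, which encodes the macrophage marker F4/80, had 249.8 ± 11 TPM under M2 and 28.3 ± 1.7 TPM at M0 (3.10 ± 0.041), while Cd14, the co-receptor for lipopolysaccharide, had 291 ± 16 TPM under M2 and 604 ± 7.2 TPM at M0 (-1.05 ± 0.032), so common macrophage markers moved in opposite directions under M2.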
